A study of Mus musculus with 6 samples.

Results

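The Toll-like receptors and their coreceptor Cd14 were followed in spleen cells (splenocytes) from 3 groups of female NZB/WF1 mice, which are prone to a disease like human lupus. Of 10 genes listed by symbol (Tlr1 to Tlr9 and Cd14), 8 had a row among the 561 genes of the table, matched through their RefSeq transcript, and Tlr6 and Tlr7 were not analysed here. Implants were placed when the mice were 6 to 7 weeks old and stayed for 9 weeks. They released 17-beta estradiol (E2), the natural hormone, or 17alpha-ethinyl estradiol (EE), used in oral contraceptives, or held no drug (placebo). Each group held 2 samples, named by the numbers in their labels: E2 replicates 1 and 2, EE replicates 11 and 14, and placebo replicates 22 and 26. All groups share sex and strain. The labels do not tie a sample to a single mouse, so errors measure the spread between these samples and may be technical. The labels used here state no dose.

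Toll-like receptors recognise microbial molecules and some molecules of the host's own dying cells. Surface receptors bind lipids and proteins of bacteria, and endosomal receptors bind nucleic acids that a cell has taken up. Most signal through the adaptor Myd88 to Irak kinases, NF-kB and interferon regulatory factors. In spleen they are carried by macrophages, neutrophils, dendritic cells and B cells, and endosomal sensing of self nucleic acids by B cells and plasmacytoid dendritic cells is one of the best studied pathways of lupus.

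Transcripts were measured on a mouse immunology panel of NanoString probes, in which each gene is hybridised to a colour-coded barcode and barcodes are counted without amplification. Summed over genes, a sample held 646299 to 863942 counts. Negative-control probes put the background (their mean plus 2 SD) at 10.1 to 13.7 counts. Of the 8 genes, 7 averaged 20 counts or more and were tested, and Tlr5 was not. Fold changes are given on 2 scales, since the choice moved them. Trimmed-mean (TMM) scaling sets a gene against the bulk of the panel. Scaling on 12 reference genes sets it against transcripts chosen for steady levels, and lowered log2 fold changes by a median of 0.63 for E2 and 0.75 for EE against placebo. Before any scaling, these 12 genes were nearly level as a set, with geometric means from 1117.0 to 1184.8 per sample. Deposited counts therefore read much as reference-scaled values do. This levelness holds for the set and not for each of its genes. Tests on reference genes used more degrees of freedom than tests on the TMM scale. Their p-values and shares of genes called are therefore not comparable with those of the TMM scale as strength of evidence. Unless another scale is named, a fold change is on the TMM scale, and a gene rose or fell where the adjusted p of edgeR's quasi-likelihood test was under 0.05.

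**Figure D1:**
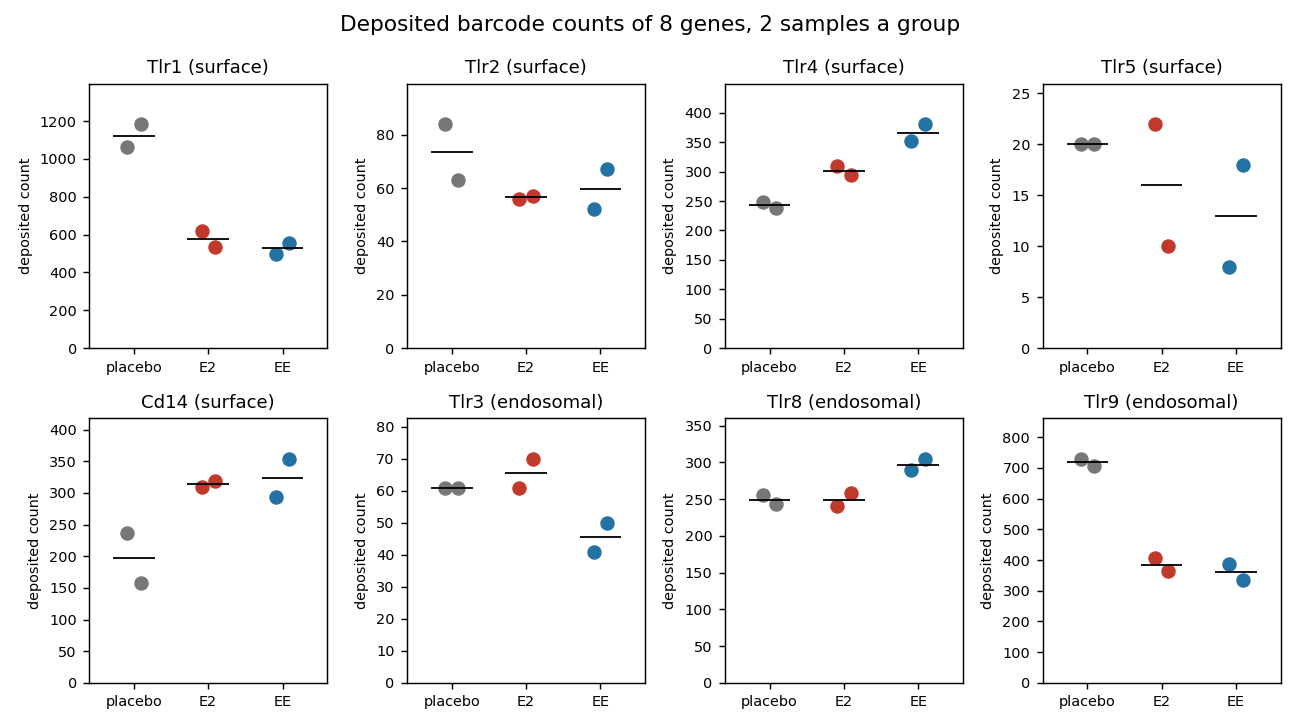
Deposited barcode counts (vertical axis, starting at 0) of the 8 genes by group, with a point for each sample and a line at the mean of 2 samples. Tlr1 and Tlr9 lay lower in all 4 estrogen samples than in both placebo samples, Tlr4 and Cd14 lay higher, and Tlr5 stayed at 22 counts or fewer. Of all tested genes 67.6% lay wholly below placebo in E2 and 70.0% in EE, and 18.2% and 18.8% wholly above.

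Tlr1, which pairs with Tlr2 to recognise triacylated bacterial lipopeptides, was lower under both estrogens. Its deposited counts were 617 and 537 in E2, 500 and 555 in EE, and 1062 and 1185 in placebo. No estrogen sample reached either placebo sample, while E2 and EE samples overlapped. In deposited counts 67.6% of all tested genes lay wholly below placebo in E2, and 70.0% in EE. Tlr1 fell by 0.40 ± 0.094 (log2 fold change ± SE, 2 samples against 2) in E2 against placebo, with an adjusted p of 0.00683 in edgeR. In EE it fell by 0.40 ± 0.095 (edgeR adjusted p = 0.00531). On reference genes the decreases were larger, -1.02 ± 0.15 for E2 and -1.16 ± 0.15 for EE, a level 2.03-fold and 2.23-fold below placebo. The medians of all tested genes on that scale were -0.62 and -0.75. Tlr1 was called lower under each of 6 scalings in both comparisons. Without EE replicate 11 the EE call was lost (edgeR adjusted p = 0.0577, the highest of 17 alternatives, the lowest being 2.90e-13).

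Tlr2, the shared partner of Tlr1 and Tlr6, was counted at a low level, with deposited counts of 56 and 57 in E2, 52 and 67 in EE, and 84 and 63 in placebo. Both E2 samples lay below both placebo samples, by 6 counts at the nearest, and EE overlapped both other groups. Its log2 fold change was 0.19 ± 0.23 in E2 and 0.38 ± 0.23 in EE on the TMM scale, and -0.44 ± 0.26 and -0.37 ± 0.26 on reference genes. None of these 4 values passed the threshold (edgeR adjusted p from 0.12 to 0.522), and the direction turned with the scale. Placebo replicate 22 carried the highest count. Without it, Tlr2 was called higher in EE (0.63, edgeR adjusted p = 0.0452, range over 17 alternatives 0.0279 to 0.874). The lowest of these was a call in the opposite direction, on positive controls (-0.63).

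Tlr4, the receptor for bacterial lipopolysaccharide, was higher under both estrogens, and its counts stepped up from placebo (249 and 239) to E2 (309 and 294) to EE (352 and 381). The 3 groups did not overlap. Among all tested genes 18.2% in E2 and 18.8% in EE lay wholly above placebo in deposited counts. Against placebo Tlr4 rose by 0.87 ± 0.12 in E2 (edgeR adjusted p = 3.96e-04) and by 1.27 ± 0.12 in EE (2.29e-05), which are 1.83-fold and 2.42-fold. On reference genes the increase was 0.52 ± 0.18 in EE (edgeR adjusted p = 0.00532), and the E2 value of 0.24 ± 0.18 did not pass (0.213). Tlr4 was higher than placebo under each of 6 scalings, with a call in 3 of them for E2 and in 5 for EE.

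Cd14, which hands lipopolysaccharide to Tlr4 and its partner Ly96, had deposited counts of 309 and 319 in E2, 294 and 354 in EE, and 237 and 158 in placebo. All estrogen samples exceeded both placebo samples, and the placebo samples were the ones farthest apart. Cd14 rose by 1.23 ± 0.20 in E2 (edgeR adjusted p = 9.50e-04) and by 1.39 ± 0.20 in EE (3.21e-04), or 2.35-fold and 2.63-fold. On reference genes it was 0.61 ± 0.18 in E2 (edgeR adjusted p = 0.00166) and 0.65 ± 0.18 in EE (6.88e-04). Its E2 call held in 17 of 17 alternatives. Its EE call held in 16 and was lost on positive controls, where the value was 0.39 (edgeR adjusted p = 0.0753, range over the alternatives 1.12e-09 to 0.0753). Leaving out 1 placebo sample moved the E2 value to 1.59 without replicate 22 and to 0.95 without replicate 26.

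Tlr5, the flagellin receptor, was near the background in every group, with deposited counts of 22 and 10 in E2, 8 and 18 in EE, and 20 and 20 in placebo. It exceeded the background in 4 of 6 samples. With a mean of 16.3 counts, under the filter of 20, Tlr5 was left out of the main test, so a difference was not assessed there.

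Among the endosomal receptors, Tlr9, which senses unmethylated CpG DNA and is strongly carried by B cells, was lower under both estrogens. Its deposited counts were 406 and 363 in E2, 386 and 336 in EE, and 730 and 706 in placebo. Estrogen samples lay between 336 and 406, under both placebo samples, and E2 and EE overlapped. Such a separation below placebo was seen in 67.6% of all tested genes in E2 and 70.0% in EE. Tlr9 fell by 0.34 ± 0.12 in E2 (edgeR adjusted p = 0.0387). Its EE value of -0.30 ± 0.12 did not pass the threshold on the TMM scale (0.0528). On reference genes it was -0.96 ± 0.16 in E2 (edgeR adjusted p = 2.11e-08) and -1.06 ± 0.17 in EE (6.28e-10). That is a level 1.95-fold and 2.08-fold below placebo, beside log2 medians of -0.62 and -0.75 over all tested genes. The direction was lower under each of 6 scalings, with a call in 6 of them for E2 and 4 for EE. On the TMM scale the E2 call was lost without E2 replicate 1 (edgeR adjusted p = 0.13), E2 replicate 2 (0.118), EE replicate 14 (0.0586) or placebo replicate 22 (0.0668). DESeq2 also gave no call (adjusted p = 0.0817), and the 17 alternatives ran between 2.11e-08 and 0.13. The EE value was called with limma (adjusted p = 0.0477) and by edgeR without a filter (0.0157), and not with DESeq2 (0.113). It was -0.47 without EE replicate 11 and -0.18 without EE replicate 14. It was -0.25 without placebo replicate 22 and -0.36 without placebo replicate 26. The 17 alternatives ran from -1.32 to -0.18.

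Tlr8, a close relative of Tlr7 whose human counterpart binds breakdown products of RNA, showed another pattern, with deposited counts of 240 and 258 in E2, 289 and 305 in EE, and 255 and 244 in placebo. Counts of E2 and placebo overlapped, and both EE samples lay above the other 4. On the TMM scale Tlr8 rose by 0.57 ± 0.14 in E2 (edgeR adjusted p = 0.00777) and by 0.94 ± 0.14 in EE (3.73e-04). On reference genes neither value passed, with -0.06 ± 0.18 in E2 (edgeR adjusted p = 0.762) and 0.19 ± 0.18 in EE (0.345). Over 6 scalings the direction was higher in 3 for E2 and 5 for EE, with a call for higher in 2 and 3. Without E2 replicate 2 the E2 call was lost (edgeR adjusted p = 0.0743, range over the alternatives 0.00253 to 0.987).

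Tlr3, the sensor of double-stranded RNA, which signals through Ticam1 and not through Myd88, had deposited counts of 61 and 70 in E2, 41 and 50 in EE, and 61 in both placebo samples. EE samples were the lowest, and E2 touched placebo. On the TMM scale Tlr3 rose by 0.67 ± 0.21 in E2 (edgeR adjusted p = 0.0246), and its EE value was 0.26 ± 0.22 (0.343). Reference-gene scaling gave 0.041 ± 0.27 in E2 (edgeR adjusted p = 0.903) and -0.49 ± 0.28 in EE (0.0967). Its E2 call was lost without E2 replicate 2 (edgeR adjusted p = 0.191) or placebo replicate 26 (0.053), with DESeq2 (adjusted p = 0.103) and on column totals (0.436), and the 17 alternatives ran between 0.0232 and 0.983.

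The promoters of Tlr8 and Tlr9 are shown because these endosomal receptors moved in opposite directions on the TMM scale. Both stretches are the 250 bases before the RefSeq start site in GRCm38.p6, printed 5′ to 3′ on the gene's own strand. Capitals mark GAGGAA or its reverse complement TTCCTC, the core bound by the myeloid and B cell factor SPI1 and other ETS factors.
Tlr8 (chrX:167264330-167264579, minus strand): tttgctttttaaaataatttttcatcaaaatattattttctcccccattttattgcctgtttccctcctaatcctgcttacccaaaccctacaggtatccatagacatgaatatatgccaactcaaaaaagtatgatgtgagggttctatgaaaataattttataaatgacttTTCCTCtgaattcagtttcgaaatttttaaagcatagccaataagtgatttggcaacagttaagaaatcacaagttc
Tlr9 (chr9:106222348-106222597, plus strand): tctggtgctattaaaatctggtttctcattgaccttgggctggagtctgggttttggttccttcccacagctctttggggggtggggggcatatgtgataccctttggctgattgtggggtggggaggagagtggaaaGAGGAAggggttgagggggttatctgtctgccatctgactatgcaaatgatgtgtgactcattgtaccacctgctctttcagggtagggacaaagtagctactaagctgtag
Each stretch holds 1 match, 77 bases before the start site in Tlr8 and 112 bases before it in Tlr9. Tlr9 held a second match just past its start site. Across all 32851 RefSeq promoter windows, which run from 250 bases before to 50 after a start site, 28.3% held this core on either strand. RefSeq windows were at hand for 6 of the 8 genes (7 windows), and among the others 1 window of Tlr1 held it. The interferon response core (GAAA, then 2 bases of any kind, then GAAA), found in 3.44% of all windows, matched none of the 7. Neither did the estrogen response element (GGTCA, 3 bases of any kind, TGACC), found in 0.0700% of all windows. The NF-kB core GGGNNTTCC (5.82% of all windows) matched only that of Tlr2, at 2 overlapping positions. These matches are letters in a window and were not tested as binding sites.

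The comparison of E2 with placebo thus held 4 of 7 tested genes that rose (Tlr3, Tlr4, Tlr8 and Cd14) and 2 that fell (Tlr1 and Tlr9), with a median log2 fold change of 0.57 against 0.0069 over all 457 tested genes. Over all tested genes 29.3% rose and 22.8% fell, 52.1% in either direction. On reference genes 1 of 7 was higher (Cd14) and 2 were lower (Tlr1 and Tlr9), where 11.8% of all genes were higher and 62.6% lower, 74.4% in either direction. The median of the 7 was then -0.06, and that of all tested genes was -0.62. In deposited counts 2 genes lay wholly above placebo and 3 wholly below, beside 18.2% and 67.6% of all tested genes. In TMM-scaled CPM, which divides each count by its sample's scaled total, these numbers were 4 and 2, beside 39.8% and 38.3%. By place in the cell, the 4 tested surface genes held 2 that rose and 1 that fell, and the 3 endosomal genes held 2 that rose and 1 that fell. On reference genes the surface genes held 1 higher and 1 lower, and the endosomal genes 0 higher and 1 lower.

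The comparison of EE with placebo gave 3 genes that rose (Tlr4, Tlr8 and Cd14) and 1 that fell (Tlr1) of 7, with a median of 0.38 against 0.0017 over all tested genes, of which 29.8% rose and 26.9% fell, 56.7% in either direction. On reference genes 2 were higher (Tlr4 and Cd14) and 2 lower (Tlr1 and Tlr9), beside 14.4% and 65.9% of all genes (80.3% in either direction). The medians were then -0.37 for the 7 and -0.75 for all. Deposited counts of 3 genes lay wholly above placebo and those of 3 wholly below, where 18.8% and 70.0% of all tested genes did. In TMM-scaled CPM these numbers were 4 and 2, beside 40.9% and 40.0%. On the TMM scale the surface genes held 2 that rose and 1 that fell, and the endosomal genes 1 that rose and 0 that fell. On reference genes the surface genes held 2 higher and 1 lower, and the endosomal genes 0 higher and 1 lower. Both comparisons used the same placebo samples, so their likeness is not independent.

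**Figure D2:**
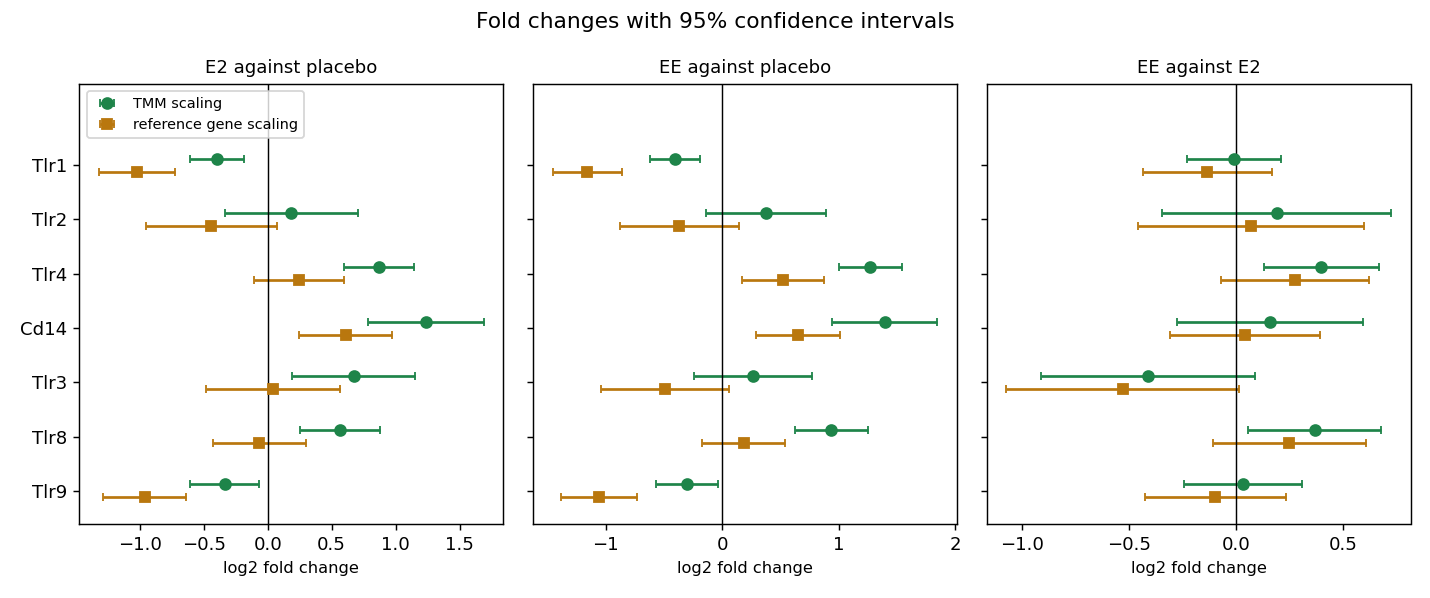
Log2 fold changes (horizontal axis) of the 7 tested genes in the 3 comparisons, as points with 95% confidence intervals from edgeR, on the TMM scale (circles) and on reference genes (squares). Tlr1 and Tlr9 lie below 0 and Cd14 above 0 against placebo on both scales, while the intervals of all 7 genes in EE against E2 on reference genes include 0.

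**Figure D3:**
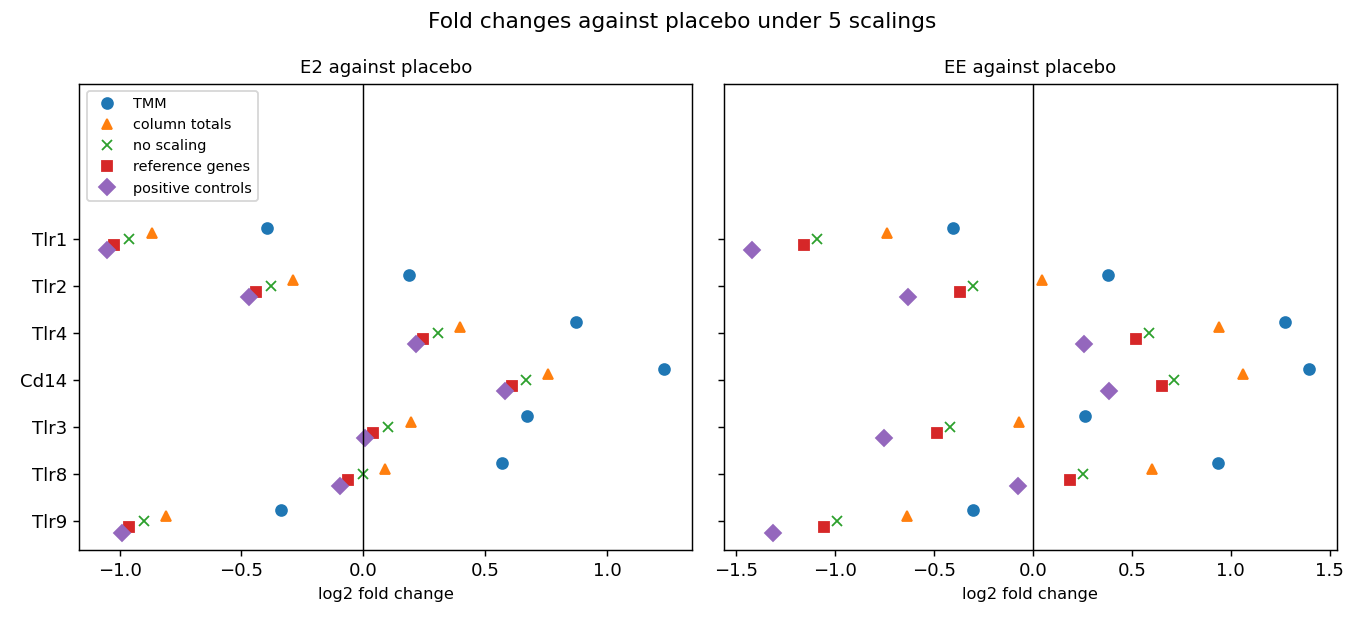
Log2 fold changes (horizontal axis) against placebo of the 7 tested genes under 5 of the 6 scalings (TMM, column totals, none, reference genes, positive controls), without error bars. The points of Tlr1 and Tlr9 stay below 0 and those of Tlr4 and Cd14 above 0 in both panels, whereas those of Tlr2 fall on both sides of 0 in both panels, those of Tlr8 do so too, and those of Tlr3 do so for EE.

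The direct comparison of EE with E2, estrogens that differ by the ethinyl group at the 17alpha position, was the only pair of compounds. Their doses are not known here and may not match. By edgeR 0 of 7 genes passed the threshold, beside 7.44% of all tested genes higher and 5.03% lower in EE (12.5% in either direction). On reference genes 0 of 7 passed too, beside 5.03% higher and 10.9% lower (16.0% in either direction). At an unadjusted p under 0.05, 2 of 7 differed, Tlr4 and Tlr8, beside 25.8% of all tested genes, and DESeq2 and limma also called 0. Tlr4 was 0.40 ± 0.12 higher in EE, with a 95% interval of 0.13 to 0.67 and an edgeR adjusted p of 0.0574. The interval for Tlr8 was 0.059 to 0.68 (0.37 ± 0.14, edgeR adjusted p = 0.117). In deposited counts both EE samples exceeded both E2 samples for these 2 genes and lay below them for Tlr3, beside 17.9% and 40.7% of all tested genes. In TMM-scaled CPM 2 genes lay wholly above E2 and 1 wholly below, where 32.2% and 30.4% of all tested genes did. The calls of both depended on the fit. Tlr4 passed on column totals (edgeR adjusted p = 0.008), with negative controls subtracted (0.0461), when only E2 and EE samples were fitted (0.00757), without placebo replicate 22 (0.013) or placebo replicate 26 (0.0132) and under TMM without S100a8, S100a9 and Camp (0.0427), and not on reference genes (0.308), and the alternatives ran between 0.00757 and 0.882. Tlr8 passed in 4 of 17 alternatives, on column totals (edgeR adjusted p = 0.0161), with only E2 and EE samples (0.0271) and without placebo replicate 22 (0.0424) or 26 (0.0428), and the highest value was 0.937.

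For the other genes the 95% interval of the difference between EE and E2 depended on the scale. On the TMM scale it was -0.23 to 0.21 for Tlr1 and -0.24 to 0.31 for Tlr9, and on reference genes -0.44 to 0.17 and -0.42 to 0.23. On the TMM scale Cd14 had an interval of -0.28 to 0.60, Tlr2 one of -0.34 to 0.73, and Tlr3, at -0.41 ± 0.22, one of -0.91 to 0.089. Differences within these intervals could not be told from 0 with 2 samples a group.

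The other genes of the pathway came from a list of 57, of which 44 had a row and 41 were tested. In E2 against placebo 4 rose and 8 fell, beside 29.3% and 22.8% of all tested genes, with a median of -0.07. In EE 10 rose and 9 fell, beside 29.8% and 26.9%, with a median of -0.06. In EE against E2 3 were higher and 0 lower, beside 7.44% and 5.03% of all tested genes. On reference genes 31 of the 41 were lower in E2 and 33 in EE, where 62.6% and 65.9% of all tested genes were. There, 2 were higher in each, beside 11.8% and 14.4% of all tested genes.

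Of 3 accessory genes, which bring ligands to the receptors or hold them at the surface, 2 rose under both estrogens. Among all tested genes 29.3% rose in E2 and 29.8% in EE. Cd36, a scavenger receptor that assists Tlr2 and Tlr6, had deposited counts of 2456 and 2326 in E2, 3116 and 2935 in EE, and 1246 and 1083 in placebo. The 3 groups did not overlap, with EE highest. Cd36 rose by 1.60 ± 0.11 in E2 and 2.06 ± 0.11 in EE, and was higher on reference genes too (0.98 and 1.31). Ly96, which encodes the MD-2 protein that binds lipopolysaccharide on Tlr4, rose by 0.55 ± 0.14 in E2 and 0.57 ± 0.14 in EE, but its deposited counts did not (249 and 191 in E2, 208 and 199 in EE, 223 and 219 in placebo). There, E2 overlapped placebo and both EE samples lay below it. Its value turned to -0.07 and -0.18 on reference genes. Ly86, which encodes the MD-1 partner of the receptor Cd180, did not pass in either comparison (0.08 and -0.07), and was lower on reference genes (-0.55 and -0.82).

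Of the adaptors, Tirap, which links Tlr2 and Tlr4 to Myd88, rose by 0.83 ± 0.21 in E2 and 0.76 ± 0.21 in EE, without a call on reference genes (0.21 and 0.0078). Its deposited counts, 108 and 104 in E2, 98 and 87 in EE, and 102 and 74 in placebo, separated E2 from placebo but not EE. Myd88 itself, the adaptor of all Toll-like receptors measured here except Tlr3, did not pass on the TMM scale (0.26 in E2 and 0.20 in EE). It was lower on reference genes, by -0.38 in E2 (edgeR adjusted p = 0.0387) and -0.55 in EE.

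Of 11 kinases and ubiquitin ligases, 0 rose and 3 fell in E2, and 1 rose and 4 fell in EE. Among all tested genes 29.3% rose and 22.8% fell in E2, and 29.8% rose and 26.9% fell in EE. On reference genes, where most of the panel was lower (62.6% and 65.9%), 10 were lower in E2 and 11 in EE. Ikbke, an interferon-pathway kinase, had deposited counts of 597 and 488 in E2, 382 and 414 in EE, and 1011 and 1253 in placebo, with no overlap between any groups. It fell by 0.50 ± 0.11 in E2 and by 0.82 ± 0.11 in EE. Ikbkb, the catalytic kinase of NF-kB activation, fell by 0.53 ± 0.15 and 0.62 ± 0.15. Irak4, the first kinase recruited by Myd88, fell by 0.46 ± 0.12 in E2 and 0.35 ± 0.12 in EE, and Irak2 fell by 0.31 ± 0.092 in EE.

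Transcription factors of the pathway held 2 decreases of 8 genes in E2, beside 22.8% of all tested genes. They were Nfkb2 (-0.35 ± 0.097) and Relb (-0.37 ± 0.11), both subunits of NF-kB. In EE Nfkb1 (-0.34 ± 0.11) and Relb (-0.32 ± 0.11) fell and Irf7 rose, beside 26.9% of all tested genes that fell and 29.8% that rose. On reference genes 7 of the 8 were lower in both comparisons, beside 62.6% (E2) and 65.9% (EE) of all tested genes. Irf7, the factor that drives type I interferon genes downstream of Tlr7 and Tlr9, had deposited counts of 167 and 127 in E2, 214 and 227 in EE, and 186 and 150 in placebo. Both EE samples lay above the other 4, and E2 overlapped placebo. It rose by 1.08 ± 0.16 in EE against placebo, and its value on reference genes was 0.33 (edgeR adjusted p = 0.108).

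Among 8 inhibitors 1 rose and 1 fell in E2, and 2 rose and 2 fell in EE. The shares of all tested genes were 29.3% and 22.8% in E2, and 29.8% and 26.9% in EE. On reference genes 7 of the 8 were lower in both comparisons, beside 62.6% (E2) and 65.9% (EE) of all tested genes. Sigirr, a receptor that dampens Toll-like and interleukin-1 receptor signalling, fell by 0.41 ± 0.12 in E2 and 0.51 ± 0.12 in EE. Nfkbiz, a nuclear regulator of NF-kB, fell by 0.34 ± 0.090 in EE. Traf4, a negative regulator of the adaptors, rose by 1.17 ± 0.19 in E2 and 0.87 ± 0.20 in EE, from placebo counts of 61 and 87 to 114 and 110 in E2 and 81 and 87 in EE, so that its EE and placebo counts overlapped. On reference genes its E2 value was 0.53 (edgeR adjusted p = 0.0319) and its EE value of 0.12 was not called (0.668).

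Of 9 output cytokines and chemokines, 0 rose and 2 fell in E2, and 3 rose and 1 fell in EE. The shares of all tested genes were 29.3% and 22.8% in E2, and 29.8% and 26.9% in EE. On reference genes 0 were higher and 5 lower in E2, and 1 was higher and 6 lower in EE, again beside 62.6% and 65.9% of all tested genes lower. Ccl3, a macrophage chemokine, fell by 0.68 ± 0.14 in E2 and 0.89 ± 0.14 in EE, from 491 and 469 counts in placebo to 228 and 178 in E2 and 145 and 178 in EE. Ccl5, a chemokine of T and NK cells as well as of macrophages, fell by 0.70 ± 0.14 in E2. In EE the cytokine gene Il1a rose by 1.79 ± 0.29 and the interferon-induced chemokine gene Cxcl10 by 1.24 ± 0.23. On reference genes Il1a kept its call (1.04), and Cxcl10 did not (0.49, edgeR adjusted p = 0.116). Il1a counts were low, at 48 and 47 in EE against 16 and 28 in placebo, and those of Cxcl10 were 53 and 56 against 32 and 42. Il6, Ifnb1 and Ifna1 stayed below the filter on low counts.

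**Figure D4:**
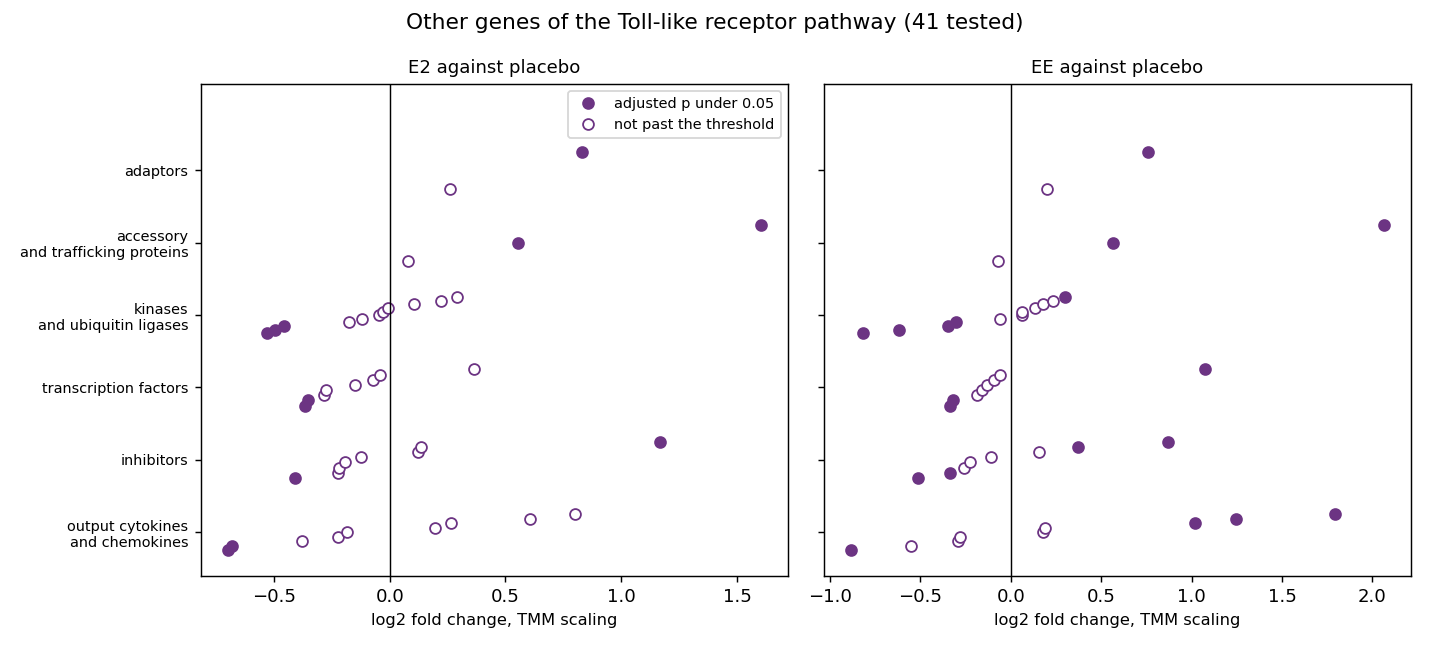
Log2 fold changes on the TMM scale (horizontal axis) of 41 tested pathway genes in E2 and EE against placebo, grouped by role, with filled points for an adjusted p under 0.05 and open points otherwise. Cd36 is the point farthest to the right in each panel, at 1.60 and 2.06, and kinases lie on both sides of 0.

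Markers of the cells that carry these receptors moved with the groups. All 7 tested neutrophil markers rose in E2 and 6 of 7 in EE, and their summed deposited counts were 182974 to 208627 in E2, 81860 to 93638 in EE and 5811 to 9470 in placebo. Most of each sum came from S100a8 and S100a9 (103948 and 63594 counts in E2 replicate 1). Csf3r, the marker without a call in EE, had 208 and 222 counts in E2, 110 and 104 in EE, and 163 and 108 in placebo. Monocyte and macrophage markers rose in 6 of 8 tested cases in E2, and in EE 5 rose and 1 fell, with sums of 7486 to 7588, 11110 to 12373 and 6460 to 7649. In this list EE was highest and E2 overlapped placebo, whereas neutrophil sums were highest in E2. B cell markers fell in 4 of 8 cases in E2 and 6 of 8 in EE, from sums of 41719 to 46061 in placebo to 24633 to 29345 and 22178 to 22846. T cell markers fell in 6 of 7 cases and in 7 of 7. Among all tested genes 29.3% rose and 22.8% fell in E2, and 29.8% rose and 26.9% fell in EE.

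Plasmacytoid dendritic cell markers had a row for 3 of 4, Tcf4, Bst2 and Irf8, and not for Siglech. They did not pass in either comparison on the TMM scale. Their sums were 2606 to 2989 in E2, 2422 to 2427 in EE and 4141 to 4413 in placebo. Irf8 is also counted among the transcription factors of the pathway, and whether these 3 genes mark this cell type alone was not tested. Conventional dendritic cell markers (3 of 5 with a row) had 0 calls in E2 and 1 increase in EE, with sums of 305 to 464 over all samples. NK cell markers fell in 3 of 3 cases in both comparisons, from sums of 1774 to 1845 in placebo to 299 to 540 in E2 and 360 to 447 in EE. Erythroid, megakaryocyte and platelet genes rose in 7 of 7 cases in both. Their sums, which came mostly from Tfrc, were 16006 to 16229 in E2, 20402 to 21297 in EE and 2497 to 3228 in placebo. These calls stand beside 29.3% of all tested genes that rose and 22.8% that fell in E2, and 29.8% and 26.9% in EE. On reference genes all 8 B cell markers and all 3 plasmacytoid dendritic cell markers were lower in both comparisons, beside 62.6% (E2) and 65.9% (EE) of all tested genes. There, 0 macrophage markers were higher and 2 lower in E2, and 5 were higher and 2 lower in EE. Of all tested genes 11.8% were higher on that scale in E2 and 14.4% in EE. No listed marker with a row was at or below background in all 6 samples. In bulk splenocytes fewer cells of a type and less RNA per cell cannot be told apart, and the part of these cell types in the receptor values was not tested.

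**Figure D5:**
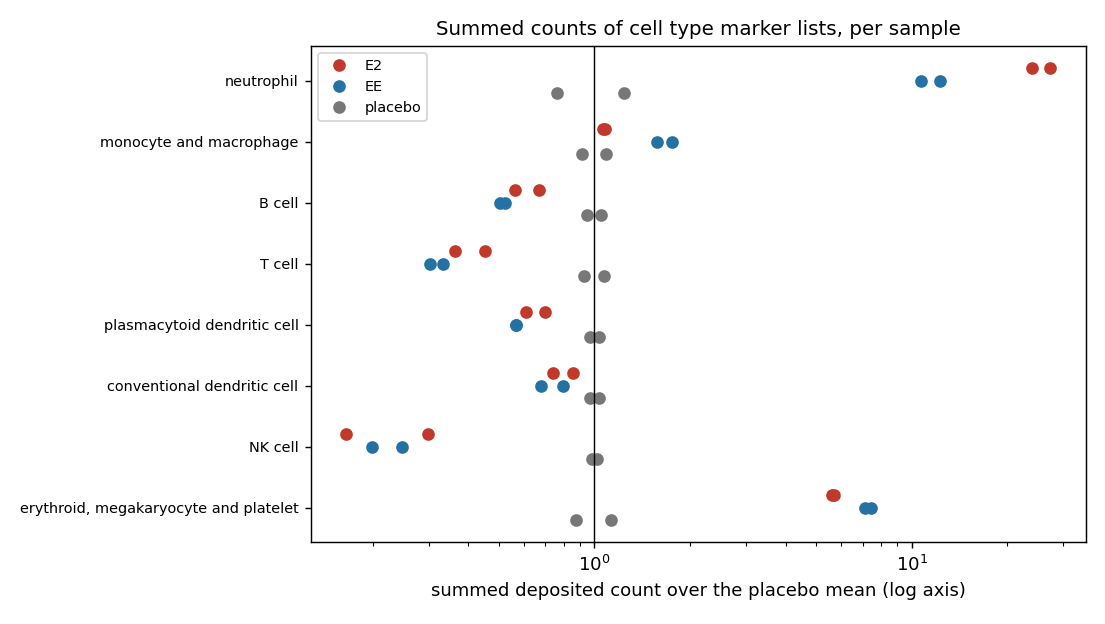
Summed deposited counts of each cell type marker list per sample, divided by the mean of the 2 placebo samples (horizontal log axis, 1 being the placebo mean). Neutrophil and erythroid sums of all 4 estrogen samples lie above placebo, and B cell, T cell and NK cell sums lie below it. Neutrophil sums came mostly from S100a8 and S100a9, and erythroid sums mostly from Tfrc.

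The genes most like each receptor were found by the root-mean-square (RMS) difference between log2 TMM-scaled levels, each centred on its mean over the 6 samples. This measure is a description over 6 samples that share 3 groups. Tlr9 lay closest to Tnfrsf13c, which encodes the B cell survival receptor for BAFF (0.065), followed by Tap1 (0.079) and Stat3 (0.083), while its own RMS spread around its mean was 0.17. Tlr1 lay closest to Il2rb (0.038), Jak1 (0.043) and Itgal (0.044), with a spread of 0.19. Cd14 lay closest to Fcgr3 (0.087) and Fcer1g (0.17), which encode an Fc receptor of myeloid cells and the signalling chain that it shares with other Fc receptors, then Itga5 (0.18), with a spread of 0.67.

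Tlr4 lay closest to the proteasome gene Psmd7 (0.029) and the reference genes Oaz1 (0.056) and Hprt (0.057), with a spread of 0.53. Tlr8 lay closest to C1qbp (0.064), Ube2l3 (0.071) and the reference gene Tubb5 (0.082), with a spread of 0.40. These reference genes are part of the other scale, on which the values of Tlr4 and Tlr8 were smaller. On that scale Tlr4 was still 0.52 higher in EE than in placebo, and 0.24 higher in E2 without a call. Oaz1 and Hprt lay close to Tlr4, so they were not level one by one. Tlr3 lay closest to Cybb (0.10) and Ncf4 (0.12), which encode parts of the phagocyte NADPH oxidase, and then to Ceacam1 (0.13), with a spread of 0.30. Tlr2, counted at a low level, lay closest to Bcap31 (0.13), Cradd (0.14) and Il13ra1 (0.15), with a spread of 0.23.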

How the data were processed

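Deposited values were barcode counts per probe of the nCounter mouse immunology panel, per the labels' protocols, and were treated as raw counts; background correction and normalisation before deposit are not given in the sources used here. As a set, reference genes were nearly level between samples, and positive controls were not. Whether the deposited counts had been scaled on reference genes is unknown. Of 575 rows, 561 were genes and 14 spiked-in controls, which made up 2.82% to 4.71% of a sample and were left out of library sizes and tests. RefSeq transcripts (GRCm38.p6, versions ignored) named 549 gene rows and left 12 unnamed. Value columns that belong to no sample numbered 0.

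Genes averaging 20 counts or more (457) were tested with edgeR 4.0.16 (R 4.3.3), quasi-likelihood, TMM scaling and 1 mean per group, fitted to all 6 samples together (3 residual degrees of freedom). P-values are two-sided and Benjamini-Hochberg adjusted over the 457 genes, with a threshold of 0.05. SE is the size of the fold change over the square root of F, and 95% intervals use the degrees of freedom of the test. These pool spread across genes and were higher on reference genes than on the TMM scale. A p-value can thus be lower on reference genes at a larger SE. Common biological variation (coefficient) was 0.0892. Scripts were tested on simulated data. Replicates differed beyond counting noise (chi-square over degrees of freedom 12.2 in E2, 3.21 in EE and 15.9 in placebo). Alternatives were DESeq2 1.42.0, limma 3.58.1 with a pseudocount of 1, other filters and scalings, subtraction of negative controls, fits of 2 groups alone, and leaving out each sample.

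Members and lists were chosen with earlier results of these data known. The text names all 8 members, for each pathway role up to 3 called genes with the lowest p per comparison (or up to 2 where none was called), the 3 genes most like each tested member, and marker lists as counts. Ly86, Myd88, the low cytokine genes and single cell type markers are named beside them, chosen after their values were seen. Reference genes were those of the panel known here, 12 of 14 named.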

Additional observations from a re-analysis of the deposited data

Results flagged for a closer look

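The test of EE against E2 is the difference between both estrogens' effects against the same placebo samples. It called 3 of 41 genes of the pathway list and 0 of 7 receptors higher in EE, beside 7.44% of all tested genes. The share of pathway genes called was thus close to that of all tested genes. The pathway count was 0 without E2 replicate 2, 1 without E2 replicate 1, EE replicate 11 or EE replicate 14, and 5 without either placebo sample. Cd36 was 0.46 ± 0.10 higher in EE (log2, edgeR adjusted p = 0.0196, both EE samples above both E2 samples), and its value on reference genes was 0.34 (0.0745). Irf7 was 0.71 ± 0.16 higher (edgeR adjusted p = 0.0215), and 0.58 (0.0257) on reference genes. Il1a was 0.99 ± 0.28 higher (edgeR adjusted p = 0.0484), from 29 and 23 counts in E2 to 48 and 47 in EE, and 0.86 (0.0527) on reference genes.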

How the results depend on the processing

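No paired analysis was possible because the groups share no replicate numbers. Few samples and low counts limit the precision: the 95% interval of Tlr2 in E2 against placebo ran from -0.33 to 0.71.

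Members called higher in E2 against placebo numbered 4, and 2 on column totals, 1 without scaling, 1 on positive controls, 1 on reference genes and 3 with DESeq2; those called lower numbered 2, and 1 with DESeq2. For EE against placebo 3 were higher, and 0 on positive controls and 2 without scaling and on reference genes; 1 was lower, and 2 on column totals, without scaling, on reference genes, with limma and without a filter, and 4 on positive controls. For EE against E2 0 were higher, and 1 under TMM without S100a8, S100a9 and Camp, 1 with negative controls subtracted, 2 on column totals and 2 with only the groups compared; 0 were lower, and 1 on positive controls. Leaving out 1 sample gave 2 to 4 higher and 1 to 2 lower for E2, 3 to 4 higher and 1 to 2 lower for EE, and 0 to 2 higher for EE against E2.

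Pathway genes called higher in E2 numbered 4, and 2 on column totals, without scaling and on reference genes and 1 on positive controls; lower were 8, and 28 on column totals, 30 without scaling, 30 on positive controls and 31 on reference genes. In EE 10 were higher, and 5 on column totals, 3 without scaling, 2 on positive controls and 2 on reference genes; lower were 9, and 22, 33, 34 and 33 in the same order. For EE against E2 3 were higher, and 8 on column totals, 7 with only the groups compared, 0 on positive controls and 1 on reference genes; 0 were lower, and 1 without scaling, 1 with only the groups compared, 8 on positive controls and 1 on reference genes. Without 1 sample the ranges were 4 to 7 higher and 4 to 10 lower in E2, 5 to 10 and 4 to 10 in EE, and 0 to 5 and 0 to 1 for EE against E2. Each scaling lowers or raises all genes of a comparison together.

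Directions turned as follows. In E2 against placebo Tlr2 was -0.44 on reference genes, -0.38 without scaling, -0.29 on column totals, -0.47 on positive controls and -0.033 without placebo replicate 26 (up to 0.44 without another sample), Tlr8 was -0.064, -0.0029 and -0.097 on reference genes, without scaling and on positive controls, and Ly96 was -0.068, -0.0065 and -0.091 there. In EE against placebo Tlr2 was -0.37, -0.30 and -0.63 and Ly96 -0.18, -0.12 and -0.45 on the same 3, Tlr3 was -0.49, -0.42 and -0.75 there and -0.070 on column totals, and on positive controls Tlr8 was -0.078, Tirap -0.25 and Traf4 -0.15. In EE against E2, where these genes had no call, Tlr1 was 0.13 on column totals, 0.0059 under TMM without 3 genes, 0.0064 with negative controls subtracted, 0.0094 with only the groups compared, 0.0019 without E2 replicate 1 and 0.041 without EE replicate 11 (down to -0.054 without another sample); Tlr9 was -0.095, -0.091 and -0.33 on reference genes, without scaling and on positive controls and -0.099 without EE replicate 11 (up to 0.16 without another sample); Tlr2 was -0.16, Cd14 -0.19, Irak1 -0.17 and Tollip -0.11 on positive controls; Myd88 was 0.089 on column totals and 0.15 without E2 replicate 2, and Tirap 0.066 and 0.036 on column totals and without EE replicate 14. For settings other than scalings the cause was not tested.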
